A study of Mus musculus with 6 samples.

Results

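Transcripts of the MEK5-ERK5 kinase module, of the MEF2 factors that it activates and of Krüppel-like factors (KLFs) that lie downstream of it were followed in mouse hematopoietic stem cells (HSCs), the cells that maintain all blood lineages. The 7 genes, chosen by name, were Map2k5, Mapk7, Mef2a, Mef2c, Klf2, Klf4 and Klf6, out of 19978 genes in the deposited table. The choice was made with the values of these genes in the comparison of the groups known. Differences between groups in these genes are therefore given as descriptions. Each library came from 100 HSCs sorted from bone marrow, and full-length polyadenylated RNA was copied and amplified by a low-input method (Smart-seq2). There were 3 libraries from mice labelled Piezo1 cKO, a conditional knockout of the mechanically gated cation channel gene Piezo1, and 3 from mice labelled WT. The driver of the deletion, the exons deleted, the strain, age and sex of the mice and whether libraries of a group came from separate mice are not given in the sources used here. Any p-value thus measures only the spread between these libraries, which may be technical.

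MEK5, encoded by Map2k5, is the kinase that phosphorylates and activates ERK5, encoded by Mapk7, which is its dedicated substrate. In endothelial cells exposed to fluid flow, active ERK5 acts on MEF2 transcription factors, and these switch on Klf2 and Klf4, genes of the quiescent, flow-adapted vessel wall. In blood cells KLF2 is best known for holding lymphocytes in quiescence, KLF4 for monocyte differentiation, and MEF2C for lymphoid and megakaryocytic development. KLF6 is a widely expressed member of the same zinc finger family, and it is induced rapidly by many stimuli.

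The start-site regions of the genes were searched for the motifs of these factors. RefSeq windows on GRCm38.p6, from 250 bases before to 50 bases after an annotated start, existed for all 7 genes, 10 windows in all. The MEF2 motif was searched on both strands, and so was the KLF core CACCC, which reads GGGTG on the opposite strand. The 4 windows below are shown because they belong to the kinase with the largest difference, to the textbook MEF2 targets Klf2 and Klf4, and to the window besides that of Klf2 with a MEF2 match. Capitals mark a match to either motif.
Map2k5, chr9:63377853-63378152, minus strand: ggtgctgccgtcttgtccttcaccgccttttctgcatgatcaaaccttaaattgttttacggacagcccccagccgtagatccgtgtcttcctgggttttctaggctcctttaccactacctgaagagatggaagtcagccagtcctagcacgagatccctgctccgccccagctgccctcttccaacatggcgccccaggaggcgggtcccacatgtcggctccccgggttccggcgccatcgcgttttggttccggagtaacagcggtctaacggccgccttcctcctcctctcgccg
Klf2, chr8:72318812-72319111, plus strand: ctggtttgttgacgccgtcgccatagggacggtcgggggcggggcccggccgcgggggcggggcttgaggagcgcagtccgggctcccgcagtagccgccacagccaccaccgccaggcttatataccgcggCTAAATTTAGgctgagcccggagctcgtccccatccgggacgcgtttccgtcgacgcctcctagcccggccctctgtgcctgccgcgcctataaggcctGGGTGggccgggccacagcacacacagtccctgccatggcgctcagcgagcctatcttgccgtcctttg
Klf4, chr4:55532426-55532725, minus strand: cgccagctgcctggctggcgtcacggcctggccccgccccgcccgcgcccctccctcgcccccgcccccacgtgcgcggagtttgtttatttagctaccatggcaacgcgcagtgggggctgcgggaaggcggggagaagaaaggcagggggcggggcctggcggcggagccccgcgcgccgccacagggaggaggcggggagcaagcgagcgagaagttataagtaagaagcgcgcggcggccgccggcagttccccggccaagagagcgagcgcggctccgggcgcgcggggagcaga
Mef2a, chr7:67372809-67373108, minus strand: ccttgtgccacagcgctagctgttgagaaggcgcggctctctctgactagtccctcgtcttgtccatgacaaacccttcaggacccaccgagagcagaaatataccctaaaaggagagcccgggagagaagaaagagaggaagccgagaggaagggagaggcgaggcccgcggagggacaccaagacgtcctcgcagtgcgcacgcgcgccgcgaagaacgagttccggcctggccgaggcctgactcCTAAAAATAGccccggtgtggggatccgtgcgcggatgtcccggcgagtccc

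The Klf2 window held CTAAATTTAG, a MEF2 match that begins 118 bases upstream of the annotated start, and 1 CACCC core. The Mef2a window held CTAAAAATAG, which begins 2 bases before the start and runs across it. A MEF2 match was found in 2 of the 10 windows, against 3.19% of all 32851 windows of the same length. CACCC was found in 5 of the 10, 2 of them overlapping windows of Mapk7, against 57.5% of all windows. The Map2k5 and Klf4 windows held neither set of letters. A match describes letters only, and no binding was measured.

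Libraries of the same group differed widely, which bears on every value below. Total counts ranged from 3907259 in WT 3 to 72116120 in labelled cKO 2, an 18.5-fold range. Low counts did not follow the totals: over the 2277 genes with 1 to 99 counts in every library, the median count lay between 12 and 26, and it was 18 in WT 3 against 12 in labelled cKO 2. The median FPKM (fragments scaled to transcript length and library size) of these genes was 0.115, 0.0356 and 0.0409 in labelled cKO 1, 2 and 3, against 0.279, 0.0483 and 0.713 in WT 1, 2 and 3. Piezo1 did not follow the labels, with an FPKM of 0.175, 8.81 and 0.819 in labelled cKO 1, 2 and 3 and of 0.539, 3.97 and 1.57 in WT 1, 2 and 3. The direction of each comparison thus rests on the labels. The summed FPKM of 12 HSC markers was 571, 496 and 429 in labelled cKO 1, 2 and 3, against 610, 411 and 43.3 in WT 1, 2 and 3. Of these markers, between 6 and 8 reached an FPKM of 1 in the libraries labelled cKO, against 2, 9 and 3 in WT 1, 2 and 3. Cd34 stayed at or below 0.104 in the libraries labelled cKO and was 0.522, 0.137 and 1.24 in WT 1, 2 and 3. Ly6a, the marker with the highest mean, had 13.9, 143 and 208 in labelled cKO 1, 2 and 3, against 601, 155 and 35.5 in WT 1, 2 and 3, so it made up nearly all of the sum in WT 1. Hlf, Hoxa9 and Myct1, in contrast, had at least 17.4 in every library labelled cKO and in WT 2, and at most 0.608 in WT 1 and WT 3. Markers of other marrow cells were present: the summed FPKM of 12 granulocyte and monocyte markers ran from 845 to 37010 in the libraries labelled cKO and from 716 to 29460 in WT, led by S100a8, which had at least 212 in every library. The summed FPKM of 8 erythroid markers was 1995 to 3015 in the libraries labelled cKO and 10150 to 22800 in WT, without overlap, and 6 of the 8 were lower in every library labelled cKO, a separation found for 8.6% of all genes in the table. Lymphocyte markers summed to 0.929 to 3.26 in the libraries labelled cKO and to 8.14 to 86.5 in WT. The B-cell receptor gene Cd79b led them. It had 1.12, 0.356 and 0.271 in labelled cKO 1, 2 and 3 against 3.06, 85.8 and 6.499 in WT 1, 2 and 3. The T-cell genes differed among themselves. Cd3e had at most 0.0651 in any library. Trbc2 had 0.1215, 0.1342 and 0.4247 in labelled cKO 1, 2 and 3 against 1.505, 0.1796 and 5.979 in WT 1, 2 and 3. Cd3g had 1.468 in WT 3 and at most 0.2147 elsewhere. In WT 3 these values of Trbc2 and Cd3g stood on 23 and 28 counts. Megakaryocyte markers summed to 28.9 to 294 in the libraries labelled cKO and to 264, 1879 and 16.5 in WT 1, 2 and 3, led by the platelet factor gene Pf4 at 1814 in WT 2. Itga2b, the next of them by mean, ran the other way. It had 177, 16.6 and 28.2 in labelled cKO 1, 2 and 3 against 0.333, 7.2 and 0.306 in WT 1, 2 and 3. Endothelial and stromal markers summed to 0.636 to 20.98 and to 4.13 to 13.6, with the endothelial Cdh5 at most 0.380 and 2.17. Sex-linked transcripts moved with the groups in part. The sex-linked genes, Cd34 and the other markers given here were named after their values were seen. Xist, the X-inactivation RNA of female cells, had an FPKM of 38.6, 32.5 and 15.7 in labelled cKO 1, 2 and 3 against 0.0481, 0.00736 and 0 in WT 1, 2 and 3. The Y-linked Eif2s3y, in contrast, had 150 in labelled cKO 1 and 62.5 in WT 2 and at most 1.87 elsewhere. Uty, also Y-linked, had 27.1 and 0.949 in labelled cKO 1 and 3, on 9909 and 723 counts, and at most 0.217 elsewhere. Ddx3y had 3.43 in labelled cKO 3, on 1386 counts, 1.02 in WT 3, on 30 counts, and at most 0.373 elsewhere. Kdm5d, the remaining Y-linked gene looked at, had at most 0.7385 in any library. All of these differences are between libraries of 100 sorted cells. The part of sex, of other cell types and of depth in the results below was not tested. In bulk samples, fewer cells of a type and less RNA per cell cannot be told apart.

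Among the 7 genes, Map2k5 had the widest gap between the groups. Map2k5 (ENSMUSG00000058444; chr9:63163768-63377902, minus strand, GRCm38, as the authors' table places it) was listed at an FPKM of 48.0, 47.5 and 84.7 in labelled cKO 1, 2 and 3, against 0.216, 0.148 and 0.301 in WT 1, 2 and 3. All values labelled cKO lay above all WT values, and the lowest of them was 158-fold the highest WT value. The means were 60.1 ± 21.3 in the libraries labelled cKO and 0.222 ± 0.0765 in WT (SD, n = 3 each). These values stood on 5818, 12274 and 21363 counts in labelled cKO 1, 2 and 3 and on 16, 35 and 6 counts in WT 1, 2 and 3. The WT counts lay inside the range of the low genes described above, whose 95th percentiles were 77, 56 and 53 in WT 1, 2 and 3. In its own library, Map2k5 stood above 93.2% to 95.8% of all genes where labelled cKO, and above 48.8% to 62.8% in WT.

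**Figure D1:**
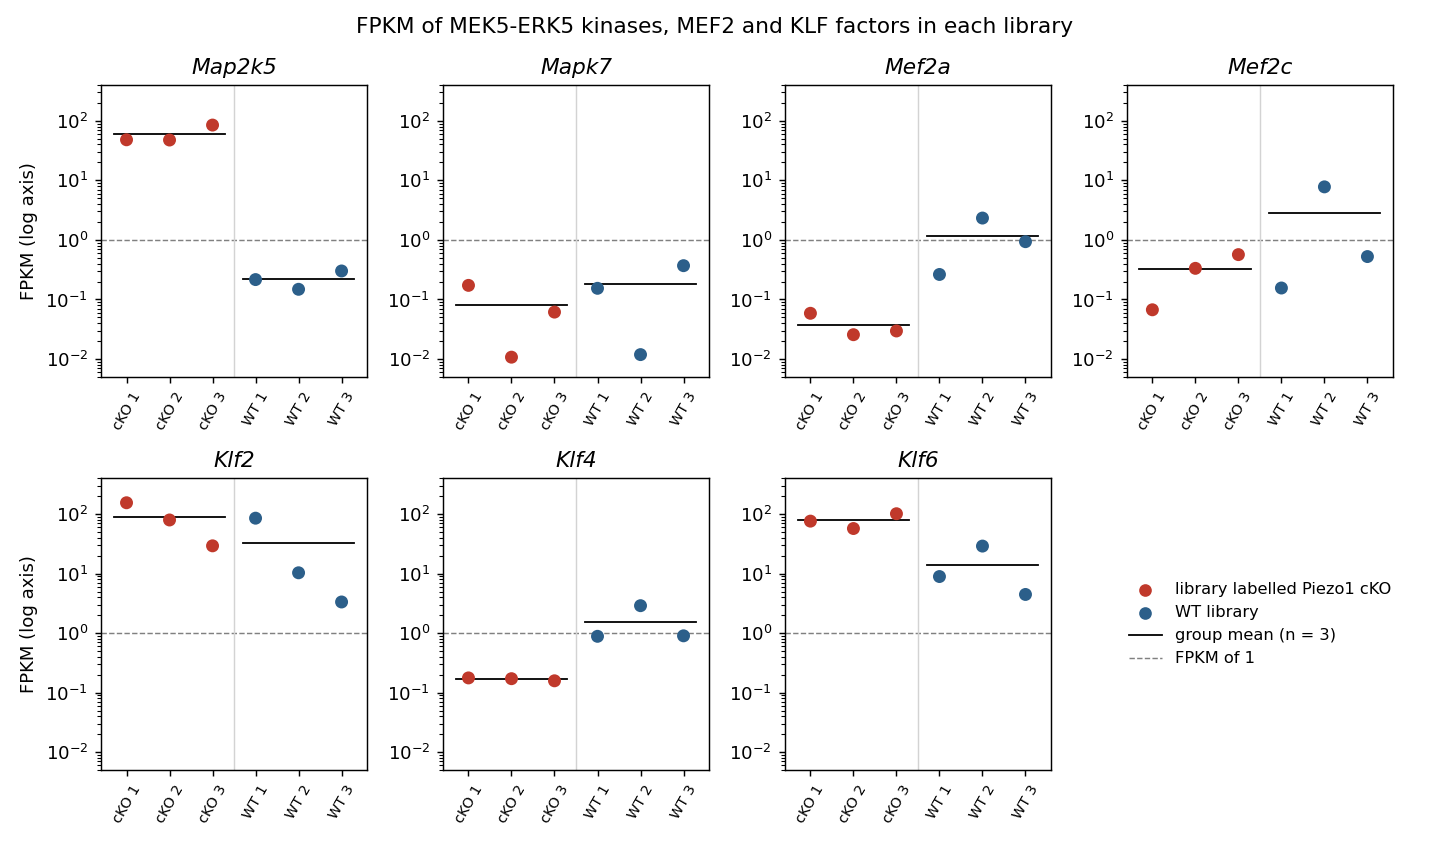
FPKM on a log axis of each of the 7 genes in the 3 libraries labelled Piezo1 cKO (red) and the 3 WT libraries (blue), with black bars at group means and a dashed line at an FPKM of 1. Map2k5 lies at 47.5 to 84.7 in the libraries labelled cKO and at 0.148 to 0.301 in WT, Klf6 is also separated, and Mapk7 stays under 1 in every library.

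edgeR's quasi-likelihood fit across all genes gave Map2k5 a log2 fold change of 8.31 (SE 3.32), cKO over WT. The median over the 4173 genes tested was 1.10 in the same fit, so Map2k5 stood 7.20 above it. The fold change stayed between 6.40 and 8.48 when any 1 library was left out. Map2k5 passed the filter, an FPKM of at least 1 in at least 3 libraries, through the libraries labelled cKO alone. With Benjamini-Hochberg adjustment at 0.05, edgeR called 0 of the 4173 genes (0%), while an unadjusted p under 0.05 was reached by 287 (6.88%). limma on log2(FPKM + 1) also made 0 calls, and 199 genes (4.77%) had an unadjusted p under 0.05. DESeq2, which gave no adjusted p for 752 genes, called 298 (7.14%), of which 135 (3.24%) were higher and 163 (3.91%) lower in the libraries labelled cKO. DESeq2's calls held Map2k5 (log2 fold change 6.91, SE 1.34), but Map2k5 had been chosen with this difference known, so no support is drawn from that call. An FPKM of at least 5 in every library labelled cKO together with less than 1 in every WT library was met by 19 of the 19978 genes (0.0951%), Map2k5 among them. The opposite pattern was met by 1 gene (0.00501%).

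No annotated gene of GENCODE M21 overlapped Map2k5, and its neighbours on the chromosome had other patterns. The nearest gene in the table, 2300009A05Rik, lay beyond the start of Map2k5, with a gap of 16545 bases between the 2 loci. It had an FPKM of 0.0267, 32.2 and 31.1 in labelled cKO 1, 2 and 3, against 0.268, 23.3 and 0.697 in WT 1, 2 and 3, so it was high in WT 2 and low in labelled cKO 1. Pias1, a SUMO ligase gene on the other side, had 43.5 in labelled cKO 2 and 8.79 in WT 2, and at most 0.485 in the remaining libraries.

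The substrate kinase did not accompany MEK5. Mapk7 (ENSMUSG00000001034; chr11:61488812-61494296, minus strand), which encodes ERK5, had an FPKM of 0.172, 0.0107 and 0.0614 in labelled cKO 1, 2 and 3, against 0.154, 0.0119 and 0.369 in WT 1, 2 and 3. The groups overlapped, and the values stood on 4 to 30 counts in the libraries labelled cKO and on 4 to 15 in WT. At these counts a difference between groups was not detectable. Per length, Map2k5 exceeded Mapk7 by 278-fold, 4427-fold and 1381-fold in labelled cKO 1, 2 and 3, against 1.40-fold, 12.5-fold and 0.814-fold in WT 1, 2 and 3. The Mapk7 locus overlaps Mfap4 on the opposite strand, and the sources used here do not give the strand setting of the counting.

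**Figure D2:**
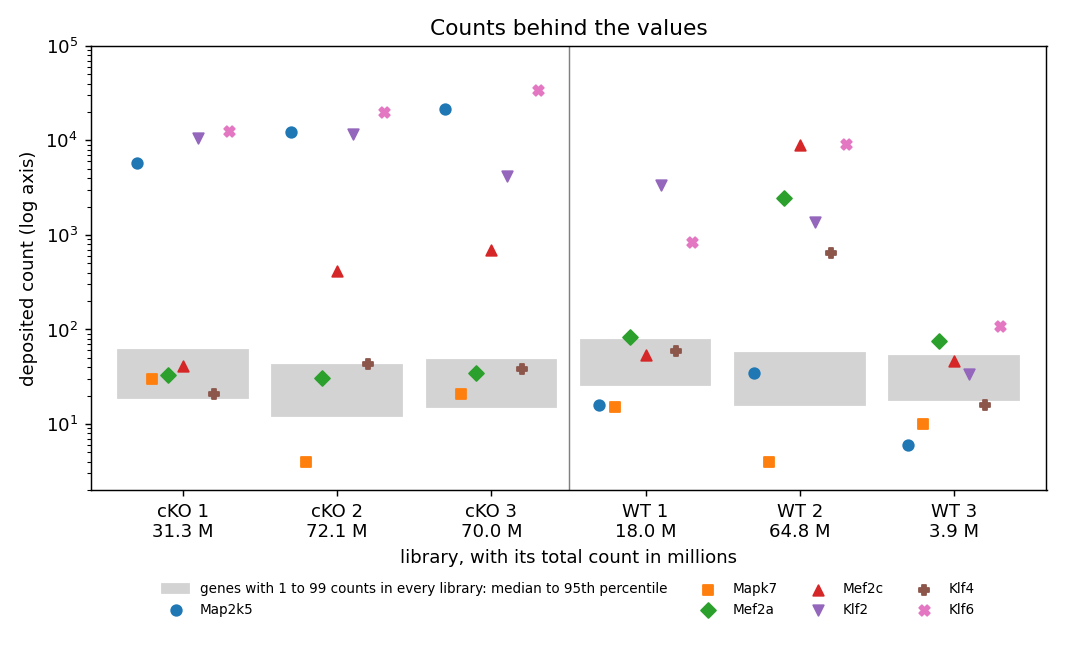
Deposited counts on a log axis behind each of the 7 genes in every library, with the total count of the library under its name; grey boxes span the median to the 95th percentile of the 2277 genes with 1 to 99 counts in every library. Map2k5 has 5818 to 21363 counts in the libraries labelled cKO and 6 to 35 in WT, where it lies inside or below the grey boxes, as Mapk7 does in every library.

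Within the MAP2K family, the kinases that activate MAP kinases, the libraries labelled cKO did not share a leading member. Map2k5 made up 13.9%, 43.6% and 96.3% of the summed FPKM of the 7 family genes in labelled cKO 1, 2 and 3, against 6.91%, 0.265% and 5.14% in WT 1, 2 and 3. Map2k1, the MEK1 kinase of the classical ERK cascade, had an FPKM of 242, 40.3 and 2.102 in labelled cKO 1, 2 and 3 and of 0.791, 18.5 and 1.32 in WT 1, 2 and 3, and the groups overlapped. Map2k4, a kinase upstream of JNK, had 53.7 in labelled cKO 1 and 5.65 in WT 2, with at most 1.29 elsewhere. Map2k6, a p38 kinase, was at 31.0 in WT 2 and at most 0.149 in every other library. Map2k2, the MEK2 kinase, reached 20.3 in labelled cKO 2 and at most 1.21 in the others. Thus 3 of the 7 genes passed the filter, all 3 with a fold change above 0, and none was called by edgeR. Besides Map2k5, whose call is set aside above, DESeq2 called Map2k1, against 7.14% of all genes tested.

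Within the MAPK family, the kinases that MAP2Ks activate, only 1 of the 10 genes in the table passed the filter, and edgeR did not call it. Mapk6 (ERK3) at 36.1 in labelled cKO 1, Mapk8 (JNK1) at 10.3 in labelled cKO 2 and Mapk9 (JNK2) at 6.36 in labelled cKO 3 each exceeded an FPKM of 1 in that library only. Mapk7 made up 0.0237% to 0.454% of the family's summed FPKM in the libraries labelled cKO and 0.150% to 1.36% in WT.

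Regulators upstream of MEK5, among them its activating MAP3 kinases, adaptors and chaperones, passed the filter for 5 of the 16 genes in the table, and edgeR called none in either direction. The 5 had a median log2 fold change of 0.70, against 1.10 over all genes tested. With median-of-ratios scaling the sign of the list's median turned (-0.17), where the median over all genes tested was 0.52. Hsp90aa1, a chaperone that holds ERK5 in the cytoplasm together with CDC37, had an FPKM of 38.5, 203 and 168 in labelled cKO 1, 2 and 3, against 210, 123 and 13.4 in WT 1, 2 and 3. Sqstm1, the p62 scaffold that binds MEK5 through its PB1 domain, had 3.12, 15.3 and 10.0 in the libraries labelled cKO and 8.71, 0.943 and 14.4 in WT. Values of both genes overlapped between the groups. Map3k8, a MAP3 kinase of inflammatory signalling, had 59.5 and 32.6 in labelled cKO 2 and 3 and at most 0.297 in the other libraries. Ptpn11, the phosphatase SHP2, had 62.1 in labelled cKO 1 and at most 1.43 elsewhere.

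**Figure D3:**
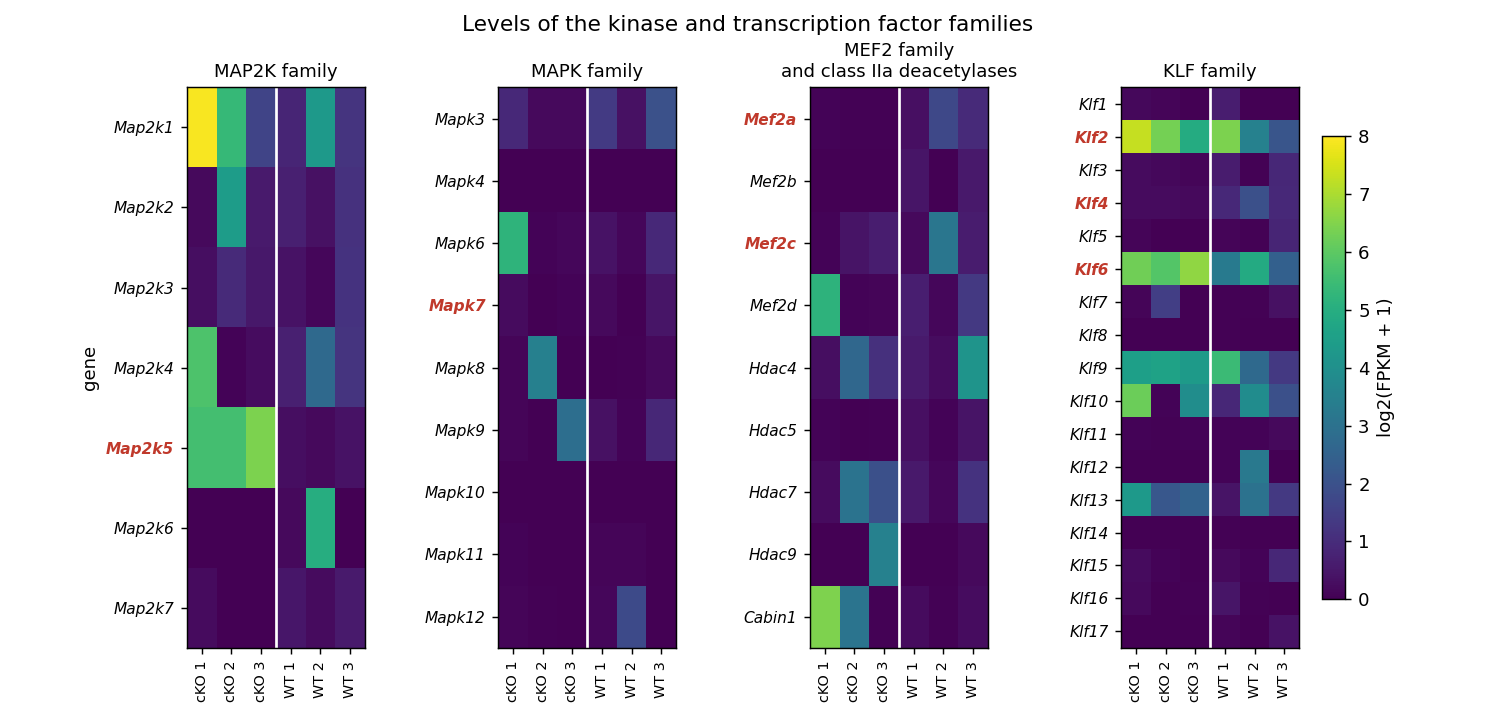
log2(FPKM + 1) of genes of the MAP2K, MAPK, MEF2 and KLF lists, in the libraries labelled cKO (left of the white line) and WT (right), with the 7 genes of interest in red. Map2k5 is bright in the 3 libraries labelled cKO and dark in WT, while several relatives such as Map2k6, Mapk6, Mef2d and Klf12 are bright in 1 library.

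Both MEF2 genes were low in the libraries labelled cKO and had their highest level in WT 2. In that library Cd79b and the summed FPKM of the megakaryocyte markers, most of it from Pf4, were also highest. Of the single megakaryocyte markers, Pf4 and Gp1bb were highest in WT 2. Itga2b was highest in labelled cKO 1 (177), Vwf in labelled cKO 2 (5.64), and Gp9 and Ppbp in WT 3. Whether cells of those lineages had a part in the MEF2 levels was not tested. Mef2a (ENSMUSG00000030557; chr7:67231163-67372858, minus strand) had an FPKM of 0.0586, 0.0256 and 0.0296 in labelled cKO 1, 2 and 3, against 0.263, 2.33 and 0.934 in WT 1, 2 and 3. All values labelled cKO lay below all WT values, with means of 0.0379 ± 0.0180 in the libraries labelled cKO and 1.17 ± 1.05 in WT (SD, n = 3 each). The counts behind them were 33, 31 and 35 in labelled cKO 1, 2 and 3 and 83, 2474 and 76 in WT 1, 2 and 3, so the values labelled cKO stood on counts inside the low-gene range, and those of WT 1 and WT 3 lay above its 95th percentiles of 77 and 53. Mef2a overlaps Lysmd4 on the opposite strand and 2 unverified transcript models on its own.

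Mef2c (ENSMUSG00000005583; chr13:83504034-83667078, plus strand) had an FPKM of 0.0671, 0.333 and 0.566 in labelled cKO 1, 2 and 3, against 0.156, 7.77 and 0.525 in WT 1, 2 and 3. The groups overlapped, and 8847 of the WT counts lay in WT 2, beside 54 and 46 in WT 1 and WT 3. Neither gene passed the filter. In the fit with no filter, in which 163 of 19978 genes (0.816%; 0.275% higher, 0.541% lower) were called, the log2 fold change was -3.44 (SE 2.65) for Mef2a and -1.76 (SE 2.86) for Mef2c. Without WT 2 it was -1.91 for Mef2a and turned to 1.99 for Mef2c.

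Among the other MEF2 genes, the class IIa deacetylases that repress MEF2, and Cabin1, several were high in 1 or 2 libraries only. Mef2d had an FPKM of 34.9 in labelled cKO 1, 1.51 in WT 3 and at most 0.581 elsewhere. Cabin1, a calcineurin-binding repressor of MEF2, had 87.5 and 7.44 in labelled cKO 1 and 2 and at most 0.201 in the other libraries. Hdac4 had 0.226, 5.37 and 1.14 in labelled cKO 1, 2 and 3 and 0.477, 0.208 and 16.6 in WT 1, 2 and 3. Hdac7 had 0.170, 7.30 and 2.87 in the libraries labelled cKO and 0.456, 0.108 and 1.26 in WT. These deacetylase genes were the 2 of 9 that passed the filter, and edgeR called neither. Among the MEF2 genes themselves, Mef2d alone reached an FPKM of 1 in labelled cKO 1, and none did in labelled cKO 2 or 3.

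Klf2 and Klf6 had the highest FPKM of the KLF genes when averaged over the 6 libraries, and Klf6 separated the groups. In WT 1, Klf9 exceeded Klf6, and in WT 2, Klf10 exceeded Klf2. Klf6 (ENSMUSG00000000078; chr13:5861482-5870394, plus strand) had an FPKM of 76.0, 57.1 and 101 in labelled cKO 1, 2 and 3, against 8.92, 29.0 and 4.46 in WT 1, 2 and 3. The lowest value labelled cKO was 1.97-fold the highest WT value, and the means were 78.1 ± 22.1 in the libraries labelled cKO and 14.1 ± 13.1 in WT (SD, n = 3 each). Klf6 had 12486, 19986 and 34559 counts in labelled cKO 1, 2 and 3 and 844, 9208 and 109 in WT 1, 2 and 3, above the low-gene range in all 6 libraries. Its log2 fold change was 2.84 (SE 2.46, edgeR), 1.74 above the median of all genes tested, and it lay between 1.68 and 3.69 without any 1 library.

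Klf2 (ENSMUSG00000055148; chr8:72319033-72321656, plus strand) had an FPKM of 155, 79.5 and 29.3 in labelled cKO 1, 2 and 3, against 85.2, 10.3 and 3.34 in WT 1, 2 and 3. WT 1 lay above labelled cKO 2 and 3, so the groups overlapped, and the means of 87.8 ± 63.1 in the libraries labelled cKO and 33.0 ± 45.4 in WT lay within the spread (SD, n = 3 each). Its log2 fold change of 1.53 (SE 2.44, edgeR) was 0.42 above the median of all genes tested. It turned to -0.66 without labelled cKO 1, where that median was 0.10, and was 0.49 with median-of-ratios scaling, where the median was 0.52. Without WT 1 it was 4.24. In WT 3 the Klf2 value stood on 34 counts.

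Klf4 (ENSMUSG00000003032; chr4:55527143-55532466, minus strand) went the other way, at far lower levels. Its FPKM was 0.177, 0.172 and 0.159 in labelled cKO 1, 2 and 3, against 0.885, 2.89 and 0.902 in WT 1, 2 and 3. All values labelled cKO lay below all WT values, with means of 0.169 ± 0.00966 in the libraries labelled cKO and 1.56 ± 1.16 in WT (SD, n = 3 each). The counts were 21, 43 and 38 in labelled cKO 1, 2 and 3 and 59, 640 and 16 in WT 1, 2 and 3. Thus WT 3 had fewer Klf4 counts than any library labelled cKO and a higher FPKM than all of them. Klf4 did not pass the filter, and in the fit with no filter its log2 fold change was -1.75 (SE 1.93), or -0.70 without WT 2.

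Counted over the 7 genes, 3 passed the filter, and Map2k5 and Klf6 of these lay higher in every library labelled cKO than in any WT library, a separation in that direction found for 6.37% of the genes tested, against 5.18% in the other direction. Of the 4 that did not pass, Mef2a and Klf4 lay lower in every library labelled cKO, a separation found for 9.5% of the 15805 genes outside the filter. The opposite direction was found for 0.677% of those 15805 genes. Over the whole table the shares were 1.87% higher and 8.6% lower. The choice of the 7 genes used this comparison, so nothing is read from these shares.

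Of the 17 KLF genes in the table, 5 passed the filter, all 5 with a fold change above 0 (median log2 2.12, against 1.10 over all genes tested), and edgeR called none. That median of the KLF genes was -0.49 without labelled cKO 1, where the median over all genes tested was 0.10. Klf2 and Klf6 together made up 66.8%, 82.4% and 76.9% of the family's summed FPKM in labelled cKO 1, 2 and 3, against 66.8%, 50.7% and 43.8% in WT 1, 2 and 3. Klf9, a glucocorticoid-responsive KLF, was even in the libraries labelled cKO, at 21.8, 23.3 and 19.7, against 42.8, 5.67 and 1.48 in WT 1, 2 and 3. Klf10, a gene induced by TGF-beta, had 72.9, 0.0453 and 14.3 in labelled cKO 1, 2 and 3 and 0.844, 13.9 and 2.85 in WT. Klf13 had 18.9, 3.50 and 4.72 in the libraries labelled cKO and 0.330, 7.04 and 1.53 in WT, and Klf12 reached 8.49 in WT 2 with at most 0.0476 elsewhere. No KLF gene other than Klf6 and Klf4 had groups without overlap, and 9 of the 17 stayed under an FPKM of 1 in every library, among them Klf1, the erythroid member.

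Klf2 and Klf6 belong to the early-response genes of many cells, and their levels were set beside 14 immediate-early genes in the table. Ier2, a rapidly induced nuclear protein gene, had an FPKM of 684, 417 and 185 in labelled cKO 1, 2 and 3, against 423, 186 and 7.26 in WT 1, 2 and 3. The libraries ran in nearly the order they had for Klf2, highest in labelled cKO 1 and lowest in WT 3. Fos, a subunit of the AP-1 factor, had 396, 320 and 862 in the libraries labelled cKO and 2092, 224 and 57.6 in WT. Jund, another AP-1 subunit, had 90.1, 83.6 and 17.4 in the libraries labelled cKO and 411, 51.6 and 6.78 in WT. Egr1, an early-response zinc finger factor, had 626, 217 and 3.27 in the libraries labelled cKO and 4.00, 142 and 11.2 in WT. Of the 11 that passed the filter, 8 had a fold change above 0, the median log2 fold change was 1.60 against 1.10 over all genes tested, and edgeR called none. Without labelled cKO 1 the median of these genes was 0.37, against 0.10 over all genes tested. The groups did not overlap for Fosb, Junb, Ier5 and Btg2, each higher in the libraries labelled cKO, a separation found for 6.37% of the genes tested. These names were picked out after their values were seen. DESeq2 called 2 of the 11, Fosb and Ier5, both higher, as were 3.24% of all genes tested. Whether an early response had a part in the levels of Klf2 and Klf6 was not tested.

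**Figure D4:**
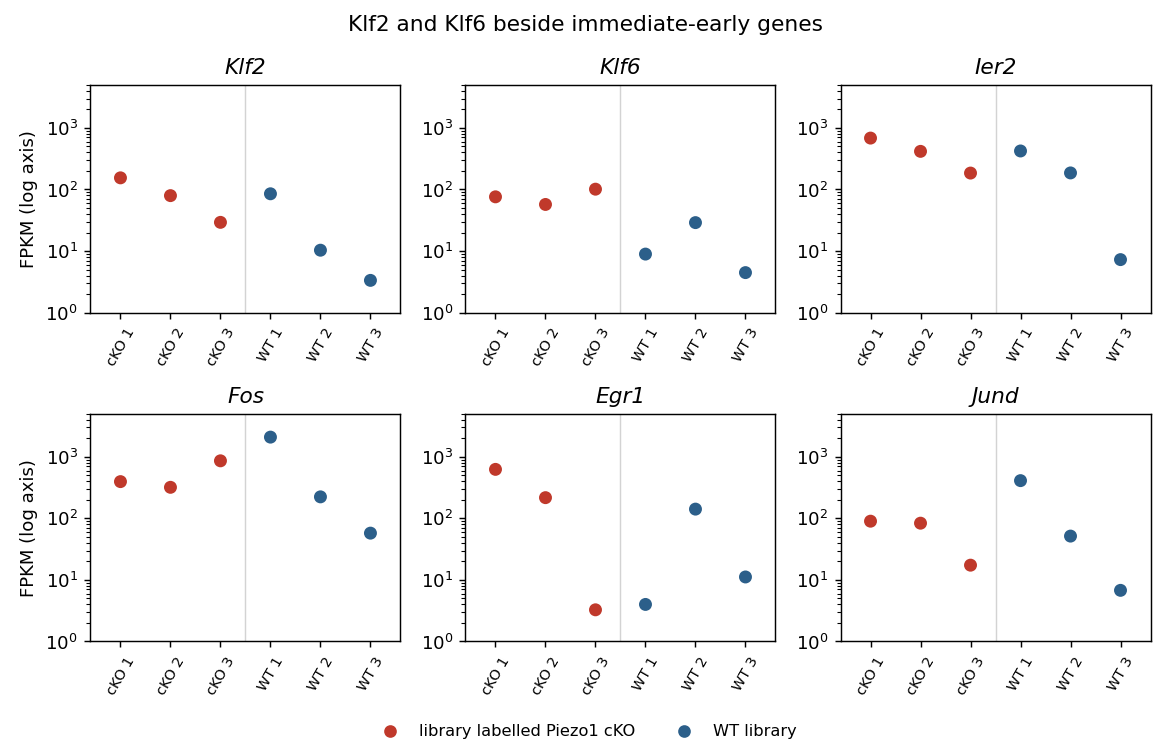
FPKM on a log axis of Klf2, Klf6 and 4 immediate-early genes in the 3 libraries labelled Piezo1 cKO (red) and the 3 WT libraries (blue). Klf2 and Ier2 both run from their highest value in labelled cKO 1 to their lowest in WT 3, while Fos and Jund have their highest value in WT 1.

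Genes known as ERK5 substrates or as targets of KLF2 or KLF4 were neither all higher nor all lower. Of the 17 genes measured, 7 passed the filter, 4 with a fold change above 0 and 3 below, with a median log2 fold change of 0.91 against 1.10 over all genes tested, and edgeR called none. S1pr1, the sphingosine-1-phosphate receptor gene that KLF2 activates in mouse T cells, had an FPKM of 8.02, 33.2 and 50.1 in labelled cKO 1, 2 and 3, against 0.667, 2.40 and 3.62 in WT 1, 2 and 3, without overlap (log2 fold change 4.20, SE 2.71, edgeR adjusted p = 0.734). Nr4a1, an orphan nuclear receptor gene that MEF2 controls in T cells, had 0.189, 89.1 and 109 in the libraries labelled cKO and 0.642, 88.7 and 1.49 in WT. Jun had 10.3, 35.7 and 21.3 in the libraries labelled cKO and 11.4, 29.4 and 5.97 in WT. Pml, the promyelocytic leukaemia protein gene, had 0.148, 14.9 and 60.9 in the libraries labelled cKO and 0.555, 1.63 and 1.31 in WT. The endothelial flow targets Thbd and Nos3 were named after their values were seen. Thbd was at 45.4 in labelled cKO 3 and at most 1.86 elsewhere, and Nos3 was at most 0.334 in any library.

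The genes whose levels over the 6 libraries most resembled those of Map2k5 were found by the root mean square difference of log2(FPKM + 1), each gene centred on its own mean, among 3973 other genes with a mean FPKM of at least 5. Cept1, a choline and ethanolamine phosphotransferase gene, was the nearest, at a difference of 0.300, against a median of 3.12 over the genes compared. It had an FPKM of 87.7, 59.9 and 92.5 in labelled cKO 1, 2 and 3 and of 0.881, 0.689 and 1.63 in WT 1, 2 and 3. Tie1, an endothelial receptor tyrosine kinase gene that HSCs also express, followed at 0.647, with 46.5, 44.0 and 30.5 in the libraries labelled cKO and 0.285, 0.509 and 0.902 in WT. Commd1 (0.699), the X-inactivation RNA Xist (0.768), Cyren (0.788), the bromodomain gene Brd9 (0.789), and the mitochondrial ribosomal protein genes Mrps23 (0.852) and Mrps17 (0.880) made up the rest of the 8. All 8 were high in the libraries labelled cKO and low in WT, as the search required. Of the other genes of the pathway, Klf6 stood nearest to Map2k5 at 1.64, then Klf2 at 2.34 and Mapk7 at 2.87. Mef2a, Klf4 and Mef2c stood at 3.31, 3.35 and 3.40, beyond the median of the genes compared. Mapk7, Mef2a, Klf4 and Mef2c had a mean FPKM under 5, outside the genes compared, so that median is not a like reference for them. Mapk7 was low in every library, so its difference mostly holds the spread of Map2k5 itself and is not read as a likeness.

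**Figure D5:**
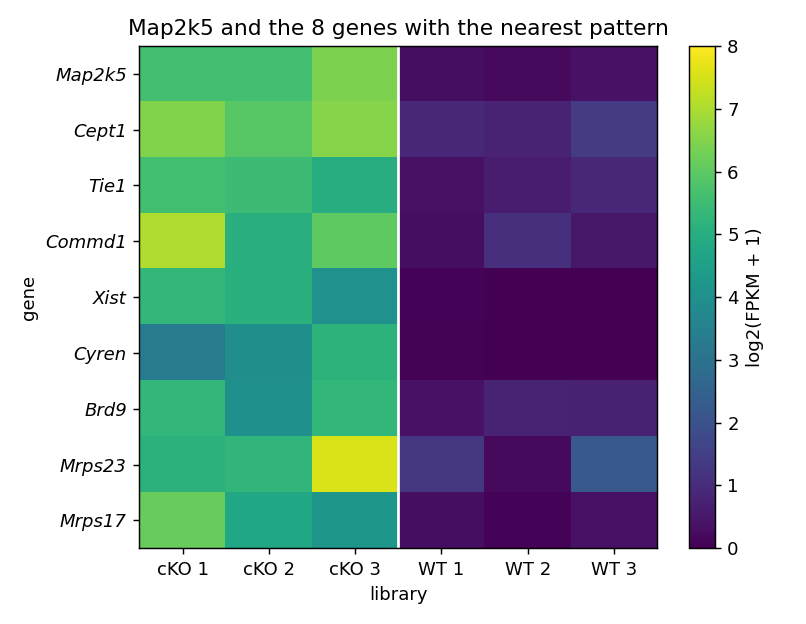
log2(FPKM + 1) of Map2k5 and of the 8 genes with the nearest pattern, in the libraries labelled cKO (left of the white line) and WT (right). Each row is bright in the 3 libraries labelled cKO and dark in WT, and Xist is among the 8.

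In order of mean FPKM, the libraries labelled cKO had Klf2, Klf6 and Map2k5 at 87.8, 78.1 and 60.1, followed by Mef2c at 0.322, Klf4 at 0.169, Mapk7 at 0.0815 and Mef2a at 0.0379. The WT libraries had Klf2 and Klf6 at 33.0 and 14.1, then Mef2c at 2.82, Klf4 at 1.56, Mef2a at 1.17, Map2k5 at 0.222 and Mapk7 at 0.178. Klf2, Klf6 and Map2k5 did not differ beyond their spread in the libraries labelled cKO, and neither did Klf2 and Klf6, nor Mef2c, Klf4 and Mef2a, nor Map2k5 and Mapk7 in WT.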

How the data were processed

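The submitters' processing notes name StringTie 2.1.6, HISAT2 2.2.1, cutadapt 1.9, edgeR and DESeq2, without saying which did what, and the build GRCm39. Start and end were equal to those of GENCODE M21, on GRCm38, for 88.1% of the 19953 genes whose identifiers it holds (not Mapk7 or Mef2c), so coordinates are read as GRCm38. The authors deposited raw counts per gene. They also deposited FPKM, named so in the file header. Depth was 3907259 to 72116120 counts. The table holds 30 genes of chromosome 17, and other genes there were not analysed here.

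Genes that reached an FPKM of 1 in 3 or more of the 6 libraries (4173) were tested by genotype label with edgeR 4.0.16 (quasi-likelihood test, TMM scaling, R 4.3.3) and Benjamini-Hochberg adjustment at 0.05. Dividing each log2 fold change by the root of its F statistic gave the standard error. limma 3.58.1 on log2(FPKM + 1), DESeq2 1.42.0 with a local dispersion fit, other filters and scaling, a replicate block and left-out libraries were alternatives. Members that did not pass the filter were fitted with no filter. The edgeR step was tested on simulated data that varied far less between libraries than these. Here the biological coefficient of variation, edgeR's measure of that spread, was 1.49. The simulation thus checked the code only and cannot tell what size of difference the fit could detect in these libraries.

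The members and gene lists were chosen with earlier results of these data known. Genes named are the members, Piezo1, up to 4 genes of each list with the highest mean FPKM, and the 8 genes nearest to Map2k5 in pattern, leaving out predicted genes; its neighbours on the chromosome were added by position. Hsp90ab1, Mapk13, Mapk14, Mapk15, Cdkn1a, Ier3 and Dusp1 of the lists were not analysed here, and some items that fall under the rule are not reported here. Figures were drawn with matplotlib 3.10.9.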

Additional observations from a re-analysis of the deposited data

How the results depend on the processing

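edgeR called 0 genes with every scaling tried, with the replicate block and without any 1 library. DESeq2 called 298, edgeR with no filter 163, and edgeR at a mean FPKM of at least 5 called 2 (Btrc and Atcay). Without WT 1 and WT 3, chosen after seeing the data and leaving 1 WT library that is assumed to vary like the others, it called 1 (S100a8). These 3 genes were named after their values were seen. The log2 fold change of Map2k5 was 6.91 in DESeq2 and past its threshold there, which it was not in edgeR or limma. DESeq2 also called 2 genes of the MAP2K list and 2 immediate-early genes. Mapk7 turned to -0.12 and -0.48 with limma at pseudocounts of 1 and 0.1, and lay between -0.44 and 1.18 without 1 library. Without WT 1 and WT 3 it was 2.54, and Mef2c was at -4.35. Without 1 library Klf2 lay between -0.66 and 4.24 and Mef2c between -2.31 and 1.99. Map2k5 and Klf6 kept their sign under every alternative run, and so did Mef2a and Klf4, which were not fitted at a mean FPKM of at least 5. In all of these genes the FPKM of the groups did not overlap, so leaving out a library could hardly turn the sign. They were also chosen with this comparison known, and no support is drawn from the kept sign.

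The median log2 fold change of the upstream list was -0.17 with median-of-ratios scaling and in DESeq2, 1.94 with no filter, which brings in more genes, 1.77 at a mean FPKM of at least 5, and -0.44 to 1.98 without 1 library. Without 1 library it was 1.34 to 6.85 for MAP2K genes, -0.49 to 3.69 for KLF genes and 0.37 to 2.46 for immediate-early genes. With no filter it was 0.17 for KLF genes. For ERK5 substrates and KLF targets it was -0.04 to 1.55 without 1 library, -0.39 with no filter, 2.80 at a mean FPKM of at least 5 and -0.27 without WT 1 and WT 3. The median over all genes tested moved as well. It was 0.10 without labelled cKO 1, 2.93 without WT 2, and 0.52 with median-of-ratios scaling and in DESeq2. With no filter it was 0.17, at a mean FPKM of at least 5 it was 1.44, and without WT 1 and WT 3 it was 0.41. The list medians are to be read beside these values. The cause of these shifts was not tested.

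Same-numbered libraries of the groups were not treated as pairs: their deviations from the group means correlated across genes at 0.126, 0.151 and -0.155. With the replicate block, edgeR called 0 genes, against 84 genes when p was not adjusted, and Map2k5 had a log2 fold change of 8.35, Klf2 of 2.72 and Klf6 of 3.20. Values of Mapk7 stood on 4 to 30 counts, and those of Klf4 outside WT 2 on 16 to 59, which limits their precision.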
